A study of Mus musculus with 8 samples.

Results

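10 genes of glutathione turnover and antioxidant defence were followed through the nuclei of mouse hearts that lack Tafazzin. The 10 members are Chac1, Gclc, Gclm, Nqo1, Hmox1, Txnrd1, Gpx4, Sod1, Sod2 and Nfe2l2. They were taken by symbol from the 32285 genes of the deposited feature tables, and each symbol matched 1 gene. Whole hearts of 4 wild-type (WT) and 4 Tafazzin-knockout (Taz-KO) male mice, aged 9 weeks, were cryopreserved, their nuclei were released, and 1 droplet library of nuclear RNA was made per mouse. Taz is X-linked and encodes the enzyme that remodels cardiolipin, the signature lipid of the inner mitochondrial membrane. The mice are a model of Barth syndrome. The strain background and the deleted part of Taz are not given in the sources used here. The unique molecular identifiers (UMIs, counts of distinct RNA molecules) of the nuclei of each cell type were added up within a library, so that the mouse is the replicate, and levels are given as UMIs per 1000000 UMIs of nuclear genes (CPM).

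Glutathione is the main small thiol of the cell and supplies the electrons with which peroxidases clear lipid and hydrogen peroxides. Its level depends on synthesis from cysteine, on recycling of its oxidised form and on breakdown, and different transcription factors act on these steps. ATF4, the effector of the integrated stress response, raises genes of amino acid supply and also Chac1, whose product breaks glutathione down. NRF2, the product of Nfe2l2, is held down by KEAP1 until electrophiles or oxidants release it, and then drives synthesis and detoxification genes through antioxidant response elements. Accordingly the members were ordered as 1 ATF4-type gene (Chac1), 5 NRF2-type genes (Gclc, Gclm, Nqo1, Hmox1 and Txnrd1), 3 enzymes that meet peroxide or superoxide directly (Gpx4, Sod1 and Sod2) and the factor gene Nfe2l2 itself.

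The 8 libraries held 169193 barcodes, with 20025456 to 348080773 UMIs per library. The Taz-KO libraries 4685 and 5301 held 3492 and 5571 barcodes, whereas the other 6 held at least 21190, so they stand apart in depth. Of 165854 distinct barcode sequences, 3295 occurred in more than 1 library. Clusters were named from their marker genes and gave 28528 cardiomyocyte, 38683 fibroblast, 21890 endothelial and 12299 macrophage nuclei, while 26.9% of the nuclei kept stayed unnamed. All 6 cardiomyocyte markers (Ryr2, Ttn, Myh6, Tnnt2, Actn2 and Pln) were detected in cardiomyocytes of every mouse, with summed levels of 47503 to 63847 CPM in WT and 37804 to 54192 CPM in Taz-KO. The cardiomyocytes of libraries 4685 and 5301 were 179 and 893 nuclei, against at least 3490 in each other library. Taz itself was at 48.3 to 55.1 CPM in WT and 28.6 to 44.4 CPM in Taz-KO cardiomyocytes and was lower in Taz-KO (log2 fold change −0.66, SE 0.18, adjusted p = 0.0275). That call was lost without WT replicate 4686 (adjusted p = 0.0592) or WT replicate 5355 (adjusted p = 0.0541) and after subtraction of a free RNA profile (adjusted p = 0.0720). Because the deleted part is not known here, the counts that remain do not test the labels.

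In cardiomyocytes, 3 of the 10 members passed the threshold of an adjusted p below 0.05: Chac1 and Nfe2l2 were higher in Taz-KO and Nqo1 was lower. Among all 18480 genes tested in cardiomyocytes, 15.7% passed (9.09% higher and 6.66% lower), and nothing is read from the count of members by itself. The other 7 members had log2 fold changes of −0.31 to 0.71 with adjusted p of 0.128 to 0.80. In fibroblasts, endothelial cells and macrophages, Chac1 alone passed, where 0.411%, 0.425% and 0.219% of all genes tested did. The 9 other members had no unadjusted p below 0.05 in these 3 cell types with edgeR, and DESeq2 also called Chac1 alone.

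**Figure D1:**
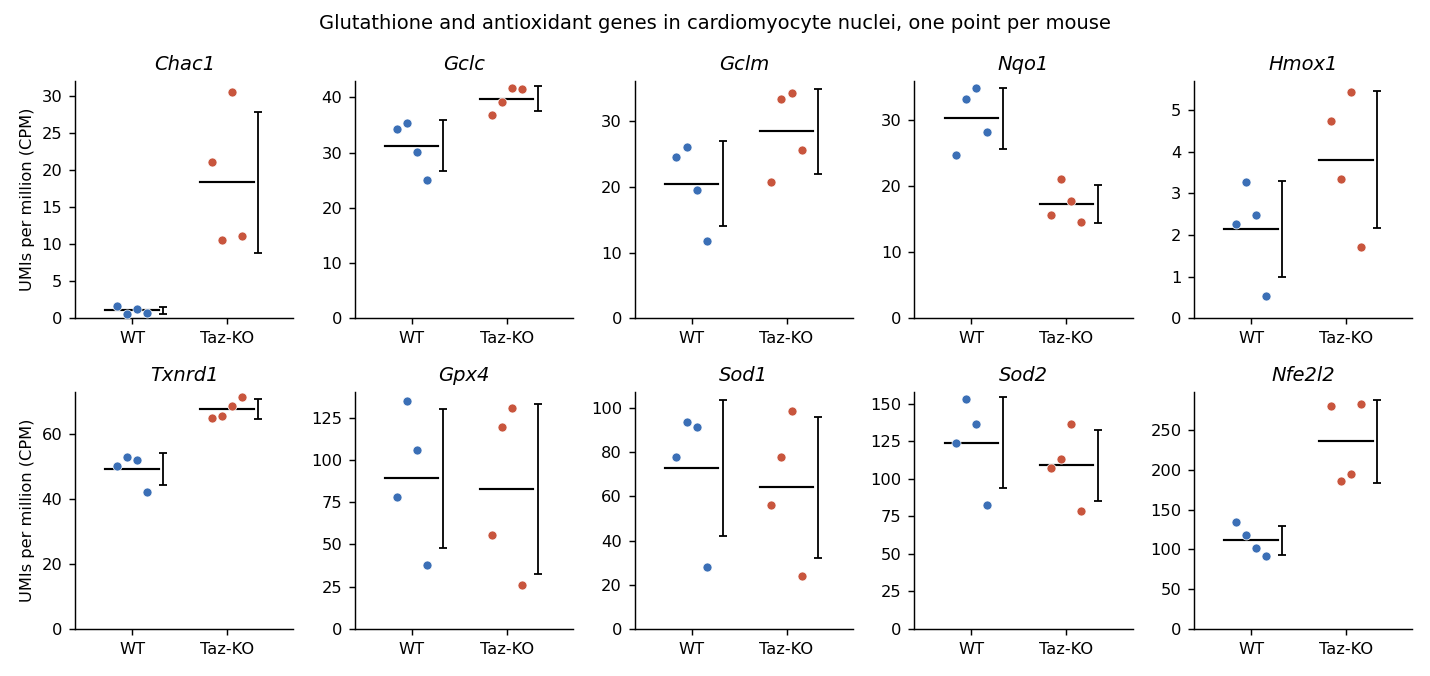
Level of each of the 10 members in cardiomyocyte nuclei (y axis: CPM, from 0; each panel has its own scale) in 4 WT and 4 Taz-KO mice. Points are mice, horizontal bars are means and the brackets beside them span 1 SD to either side. The points of the 2 groups do not overlap for Chac1, Nqo1, Nfe2l2, Gclc and Txnrd1, of which the last pair did not pass the adjusted threshold; over all genes, 16.1% had every Taz-KO mouse above and 6.95% every one below the WT mice.

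Chac1 (ENSMUSG00000027313) lies on the plus strand of chromosome 2 at 119351229 to 119354381 (GRCm38) and encodes a γ-glutamylcyclotransferase that splits glutathione. Its level in WT cardiomyocytes was 1.67 CPM in replicate 4686, 0.57 in 4909, 1.24 in 5355 and 0.75 in 5356. In Taz-KO cardiomyocytes it was 21.1 CPM in replicate 4685, 10.5 in 4910, 30.5 in 5300 and 11.1 in 5301. Every Taz-KO mouse was several-fold above every WT mouse, and 16.1% of all genes had every Taz-KO mouse above every WT mouse by some margin. The means were 1.06 ± 0.50 CPM in WT and 18.3 ± 9.47 CPM in Taz-KO (SD, n = 4 each), which rest on 200 and 2461 UMIs. The fitted log2 fold change was 3.94 (SE 0.41, adjusted p = 0.000119), a 15.4-fold difference, and the call held under all 17 alternatives, with log2 fold changes of 3.67 to 4.26. These include the fit without libraries 4685 and 5301. The difference was present in each of the 7 cardiomyocyte clusters, whose pooled levels ran from 0.60 to 2.09 CPM in WT and from 12.9 to 21.1 CPM in Taz-KO.

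The 250 bases before the start of Chac1 are shown because they hold the match to the composite element that ATF4 binds together with a C/EBP protein, searched as TGATGNAAN on both strands. The sequence is from RefSeq on GRCm38.p6, plus strand, chr2:119350992-119351241, and capitals mark the match, which reads TGATGCAAC on the minus strand and begins 194 bases before the start.
Chac1: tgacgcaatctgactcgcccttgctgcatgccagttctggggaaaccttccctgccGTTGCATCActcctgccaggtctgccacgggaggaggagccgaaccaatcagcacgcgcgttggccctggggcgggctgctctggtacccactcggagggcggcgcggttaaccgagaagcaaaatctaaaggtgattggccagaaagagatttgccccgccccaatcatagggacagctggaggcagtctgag
In RefSeq windows of 300 bases (250 before and 50 after the start), 3.95% of 32841 promoters held this match and 12.4% held the core of the antioxidant response element, searched as TGACNNNGC on both strands. The Chac1 window did not hold the latter. Neither figure says that a factor binds there.

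The share of cardiomyocyte nuclei with at least 1 UMI of Chac1 was compared after every nucleus was thinned to 2000 UMIs, which left out 0 to 10 nuclei per WT mouse and 0 to 174 per Taz-KO mouse. The thinned share was 0.34%, 0.19%, 0.29% and 0.11% in WT replicates 4686, 4909, 5355 and 5356. In Taz-KO replicates 4685, 4910, 5300 and 5301 it was 4.49%, 2.37%, 5.85% and 2.23%. The first of these rests on 8 of 178 nuclei, with an exact 95% binomial interval of 1.96% to 8.66%. The groups did not overlap, and the means differed by 3.50 percentage points (exact two-sided permutation test over 8 mice, p = 0.0286, the smallest this design allows). Shares were tested only for Chac1 and the other members called in cardiomyocytes. They come from the same UMIs as the calls, so their p-values are not separate support. Without thinning the shares were 0.80% to 2.26% in WT and 8.85% to 38.0% in Taz-KO, at median depths of 7062 to 24390 UMIs per nucleus. No cardiomyocyte nucleus held more than 9 UMIs of Chac1, so the transcript was sparse even where it was high.

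Chac1 was also higher in Taz-KO in the 3 other cell types. In fibroblasts it was 0.73, 0.45, 0.64 and 0.38 CPM in WT (order as above) and 8.66, 10.3, 27.9 and 2.72 CPM in Taz-KO, with a log2 fold change of 4.46 (SE 0.58, adjusted p = 0.0155). In endothelial cells the WT mice lay between 0.90 and 1.32 CPM and the Taz-KO mice between 4.01 and 29.4 CPM (log2 fold change 3.86, SE 0.46, adjusted p = 0.00988). In macrophages the ranges were 0.47 to 1.80 CPM and 4.14 to 39.9 CPM (log2 fold change 4.10, SE 0.65, adjusted p = 0.0460), on 22 UMIs in WT and 440 in Taz-KO. The mice did not overlap in any of the 4 types, and Taz-KO lay above WT in this way for 4.53%, 3.52% and 2.38% of all genes in fibroblasts, endothelial cells and macrophages. The difference between the effect in cardiomyocytes and that in another type was −0.44 (SE 0.42) against fibroblasts, 0.20 (SE 0.34) against endothelial cells and 0.03 (SE 0.53) against macrophages on the log2 scale, with adjusted p of at least 0.66.

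Outside cardiomyocytes these calls were less secure. In fibroblasts the call was lost when WT replicate 4686, 4909, 5355 or 5356 or Taz-KO replicate 4910 was left out, with log2 fold changes of 4.35 to 4.65 and adjusted p of 0.0536 to 0.0835. In endothelial cells it was lost without WT replicate 4686 (adjusted p = 0.0586). In macrophages it was lost without any single mouse other than Taz-KO replicate 5301 (adjusted p = 0.0788 to 0.29), with log2 fold changes of at least 3.78, and 2 to 4 of all genes were higher in those fits. The macrophage call was also lost when libraries were scaled by their totals alone. After a share of 0.2 with the profile of the poorest barcodes was subtracted from every sum, the log2 fold change was 4.62 in fibroblasts (adjusted p = 0.30), 4.00 in macrophages (adjusted p = 0.69) and 3.70 in endothelial cells (adjusted p = 0.0340), where the call held. In that setting edgeR called 0 of 16919 genes in fibroblasts (1175 at an unadjusted p below 0.05), 0 of 13528 in macrophages (477 at an unadjusted p below 0.05), and 7 higher and 4 lower of 15602 in endothelial cells.

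RNA released from broken cells can enter any droplet, so the same gene was read in the poorest 10% of barcodes by UMIs in every library. These barcodes were not shown to be empty: the poorest barcode of a library held 2165 to 6522 UMIs in WT. In Taz-KO libraries 4685, 4910, 5300 and 5301 it held 500, 3952, 2482 and 500 UMIs. Nuclei counted in the cell types were not left out of the poorest 10%, which can thus hold nuclei as well as free RNA. In these barcodes Chac1 was at 0.52 to 1.36 CPM in WT libraries and at 23.6, 17.8, 38.9 and 6.66 CPM in Taz-KO libraries 4685, 4910, 5300 and 5301. In the first 3 of these the level in the poorest barcodes exceeded that in cardiomyocytes. In 4685 it rests on 17 UMIs, and its exact 95% Poisson interval (13.7 to 37.8) holds that of cardiomyocytes (17.3 to 25.5). For 4910 and 5300 the intervals of the poorest barcodes and the cardiomyocytes do not overlap. At 2000 UMIs, the share of these barcodes with Chac1 was 3.64%, 3.44% and 7.67% in libraries 4685, 4910 and 5300. The shares of fibroblasts (1.58%, 2.17% and 5.64%) and of endothelial cells (3.20%, 2.50% and 5.34%) lay below those values in each of these libraries. The cardiomyocytes and macrophages lay below that share in libraries 4910 (2.37% and 2.24%) and 5300 (5.85% and 5.72%) and above it in 4685 (4.49% and 7.86%). In 4685 the exact 95% binomial intervals overlap (1.96% to 8.66% and 3.99% to 13.6%, against 1.76% to 6.59% in the poorest barcodes). By this share, no cell type was separated above the poorest barcodes in these 3 libraries. All 6 cardiomyocyte markers were also detected in the other 3 cell types of every mouse, with summed levels of 2929 to 11980 CPM in fibroblasts, which is 0.0540 to 0.246 of the level in cardiomyocytes of the same mouse. The Chac1 level in fibroblasts was 0.244 to 0.986 of that in cardiomyocytes, a higher ratio than that of the markers in each of the 8 mice. The cardiomyocyte markers summed to 4726 to 15126 CPM in endothelial cells and 3745 to 14461 CPM in macrophages, above the markers of the type itself (2943 to 6457 and 3396 to 9890 CPM) in each library other than 5301. In fibroblasts they exceeded the fibroblast markers in library 4910 alone (11188 against 10815 CPM). Fibroblast markers were at 821.1 to 12384 CPM in endothelial cells and 582.5 to 16437 CPM in macrophages, highest in both in library 4685, where the markers of the type itself were at 3043 and 3396 CPM. That library also had the highest Chac1 level in macrophages; without it the Chac1 call held in endothelial cells (3.83, adjusted p = 0.0237) and was lost in macrophages (3.78, adjusted p = 0.0788). The part of free RNA in the Chac1 differences was not tested.

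Library 5301 had the lowest cardiomyocyte marker ratio in fibroblasts (0.0540) and the lowest mitochondrial share in cardiomyocytes (0.504%) of the 8 libraries. There Chac1 was at 11.1 CPM in cardiomyocytes, on 104 UMIs, with an exact 95% Poisson interval of 9.09 to 13.5. In fibroblasts it was at 2.72 CPM on 6 UMIs (interval 0.998 to 5.92), and in endothelial cells at 4.01 CPM on 4 UMIs (interval 1.09 to 10.3). The intervals cover counting error only, and those of cardiomyocytes and fibroblasts do not overlap. Those of endothelial cells, of macrophages (4.14 CPM on 4 UMIs, 1.13 to 10.6) and of the poorest barcodes (6.66 CPM on 2 UMIs, 0.807 to 24.1) overlap that of cardiomyocytes.

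**Figure D2:**
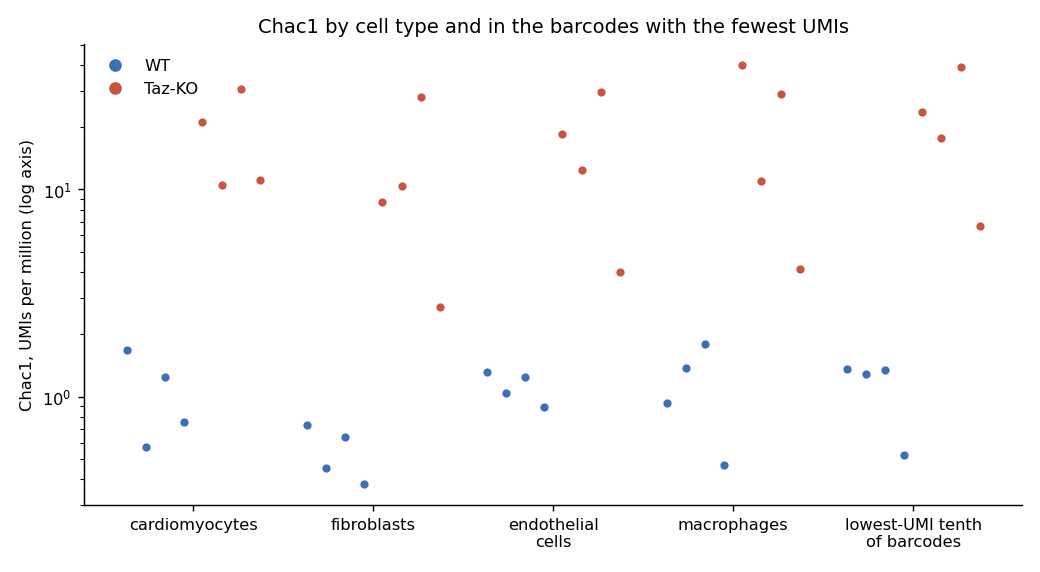
Chac1 level per mouse (y axis: CPM, log scale) in cardiomyocytes, fibroblasts, endothelial cells, macrophages and the poorest 10% of barcodes by UMIs, in 4 WT and 4 Taz-KO libraries. Points are mice in the order 4686, 4909, 5355, 5356 and 4685, 4910, 5300, 5301. Taz-KO points lie above WT points in every column, and in the last column they reach 38.9 CPM.

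Other genes of the ATF4 program moved with Chac1 in cardiomyocytes. Of 30 listed ATF4 targets other than Chac1, all were tested and 26 were higher in Taz-KO with edgeR, against 9.09% of all genes. None was lower, also at an unadjusted p below 0.05 and with DESeq2. Their median log2 fold change was 2.59, beside −0.02 over all genes tested, and it was the same with the gene that had no WT UMI set at its bound. The list was chosen with earlier results of these data known, so its counts and its median are a description. The 5 named by size were Adm2, Fgf21, Asns, Trib3 and Gdf15. Asns, which makes asparagine, was at 0.16 to 1.02 CPM in WT and 28.4 to 53.1 CPM in Taz-KO (log2 fold change 5.80, SE 0.40). Trib3, a pseudokinase induced by ATF4, was at 1.03 to 2.58 CPM and 59.4 to 130.6 CPM (log2 fold change 5.66, SE 0.33). The secreted factor Gdf15 was at 0.37 to 1.24 CPM and 15.6 to 52.0 CPM (log2 fold change 5.40, SE 0.39). The hormone Fgf21 had 3 UMIs in all WT cardiomyocytes and 780 in Taz-KO, and the peptide Adm2 had 0 and 523, at least 207-fold higher against 3 counts over the WT group. Ddit3, which encodes CHOP, a factor that acts with ATF4 on Chac1, was chosen after its values were seen; it was at 19.5 to 37.8 CPM in WT and 57.7 to 98.4 CPM in Taz-KO (log2 fold change 1.22, SE 0.23, adjusted p = 0.00453).

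In the other 3 cell types, 6 of 29, 8 of 29 and 5 of 28 ATF4 targets were higher in fibroblasts, endothelial cells and macrophages with edgeR, and none was lower at an unadjusted p below 0.05 or with DESeq2; of all genes 0.326%, 0.327% and 0.163% were higher. Asns passed in all 3 (log2 fold changes 3.75, 3.34 and 4.94). Among the 5 largest changes of a type, Mthfd2 and Slc7a5 were named in fibroblasts and endothelial cells, Gdf15 in fibroblasts and macrophages, and the serine synthesis gene Phgdh in endothelial cells. Subtraction of the profile of the poorest barcodes left counts of 0, 1 and 0, with 0, 7 and 0 of all genes higher. Without Taz-KO replicate 5301 the counts were 11, 15 and 17, in fits in which 126, 146 and 115 of all genes were higher. They were at most 3 in fibroblasts and 0 in macrophages without any other single mouse, and 0 to 4 in endothelial cells without WT replicate 4686, 4909 or 5355 or Taz-KO replicate 4685, 4910 or 5300.

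The 5 genes whose level followed Chac1 most closely, by Pearson's r of log2(CPM + 1) over the 32 sums of 4 cell types and 8 mice among 13949 genes, were Gdf15 (r = 0.955), Mthfd2 (r = 0.948), Asns (r = 0.938), Vmn2r3 (r = 0.926) and Cyb5r1 (r = 0.918). The first 3 are ATF4 targets on the list. Vmn2r3 (log2 fold change 10.0 in cardiomyocytes) belongs to the large vomeronasal receptor family, and whether its reads come from that gene was not tested. The 32 sums share mice, libraries and free RNA, so these correlations are a description.

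Of the 5 NRF2-type members, Nqo1 was the one that passed in cardiomyocytes, and it was lower in Taz-KO. Gclc, Gclm, Hmox1 and Txnrd1 did not pass; their log2 fold changes were above 0, and the median of the 5 was 0.35, beside −0.02 over all genes tested. Nqo1 (ENSMUSG00000003849, minus strand, chromosome 8, 107388225 to 107403206), the quinone reductase that is the classical readout of NRF2, was at 24.7, 33.2, 34.9 and 28.3 CPM in WT replicates 4686, 4909, 5355 and 5356. In Taz-KO replicates 4685, 4910, 5300 and 5301 it was at 15.6, 21.1, 17.7 and 14.7 CPM. All 4 Taz-KO mice were below all 4 WT mice, as was so for 6.95% of all genes. The log2 fold change was −0.92 (SE 0.17, adjusted p = 0.00411), and the call held under all 17 alternatives, with values of −1.05 to −0.80. The thinned share of nuclei with Nqo1 was 4.63% to 6.10% in WT and 1.69% to 4.24% in Taz-KO (exact two-sided permutation test, p = 0.0286, the smallest possible). Without thinning these shares overlapped (22.2% to 29.8% and 11.3% to 29.6%, exact permutation p = 0.20). In the poorest barcodes the thinned share was 3.14%, 4.20%, 3.75% and 1.01% in WT libraries 4686, 4909, 5355 and 5356, each below the cardiomyocytes of its library. The value of 5356 is 1 of 99 barcodes (exact 95% binomial interval 0.0256% to 5.50%), which does not separate it from the 4.63% of cardiomyocytes. It was 3.64%, 3.77% and 3.11% in Taz-KO libraries 4685, 4910 and 5300, while no barcode of library 5301 reached the depth. The cardiomyocyte share of library 4685 (1.69%, 3 of 178 nuclei, interval 0.349% to 4.85%) was not separated from that of its poorest barcodes (interval 1.76% to 6.59%). Those of 4910 and 5300 (4.24% and 3.53%) were little above their poorest barcodes, so these shares add no support to the difference in level. The pooled Nqo1 level was lower in Taz-KO in each of the 7 cardiomyocyte clusters, least so in a cluster with 43 WT and 40 Taz-KO UMIs. By mouse the groups overlapped in some clusters. In 1 of these, Taz-KO replicate 5301 was at 57.4 CPM, above the WT mice (12.6 to 32.5 CPM).

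In the other cell types Nqo1 was at 5.12 to 19.1 CPM in WT and 1.81 to 15.4 CPM in Taz-KO, and the groups overlapped in each. The effect in cardiomyocytes minus that in another type was −0.93 (SE 0.36) against fibroblasts, −0.80 (SE 0.28) against endothelial cells and −0.88 (SE 0.34) against macrophages, and none passed (adjusted p = 0.21, 0.19 and 0.34). Without both small libraries the last of these was −1.11 (adjusted p = 0.0410).

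Gclc and Gclm encode the catalytic and modifier subunits of glutamate-cysteine ligase, the rate-limiting enzyme of glutathione synthesis. Gclc (chromosome 9, 77754535 to 77794485, plus strand) was at 25.1 to 35.3 CPM in WT and 36.7 to 41.6 CPM in Taz-KO cardiomyocytes. Although the mice did not overlap, the log2 fold change of 0.24 (SE 0.15) did not pass (adjusted p = 0.31). Gclm (chromosome 3, 122245557 to 122270732, plus strand) was at 11.7 to 26.1 CPM in WT and 20.7 to 34.3 CPM in Taz-KO, with overlap and a log2 fold change of 0.38 (SE 0.22, adjusted p = 0.29).

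Txnrd1 (chromosome 10, 82833951 to 82897712, plus strand), the cytosolic thioredoxin reductase, was at 50.2, 53.1, 52.0 and 42.3 CPM in WT and 65.2, 65.6, 68.8 and 71.7 CPM in Taz-KO cardiomyocytes. These groups too did not overlap, with Taz-KO above WT. The log2 fold change of 0.35 (SE 0.14) did not pass (adjusted p = 0.128). It passed when libraries were scaled by their totals alone (0.46, adjusted p = 0.0181), a scaling that moved the median of all genes from −0.02 to 0.12 and the calls over all genes from 1679 higher and 1230 lower to 2188 and 951. Eid3 overlaps Txnrd1 on the same strand. Hmox1 (chromosome 8, 75093621 to 75100589, plus strand), which degrades heme, was sparse at 0.53 to 3.27 CPM in WT and 1.71 to 5.43 CPM in Taz-KO, with a log2 fold change of 0.71 (SE 0.44, adjusted p = 0.33). Its cardiomyocyte level was 0.111 to 0.379 of that in the poorest barcodes of the same library, and the part of free RNA was not tested.

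Nfe2l2 (ENSMUSG00000015839, minus strand, chromosome 2, 75675513 to 75704641), which encodes NRF2, was higher in Taz-KO cardiomyocytes. It was at 133.9, 118.2, 102.1 and 92.1 CPM in WT replicates 4686, 4909, 5355 and 5356, and at 279.9, 186.6, 194.9 and 283.0 CPM in Taz-KO replicates 4685, 4910, 5300 and 5301. The small libraries 4685 and 5301 gave the highest values, and the groups did not overlap. The log2 fold change was 0.99 (SE 0.22, adjusted p = 0.0123), a 1.98-fold difference. Without both small libraries it was 0.57 (SE 0.21, adjusted p = 0.121), and the call was lost; under the other 16 alternatives it held. The thinned share of nuclei with Nfe2l2 was 16.3% to 22.1% in WT and 29.9% to 41.7% in Taz-KO (exact two-sided permutation test, p = 0.0286, the smallest possible). Without thinning the shares were 55.6% to 74.4% and 67.6% to 94.97% (exact permutation p = 0.17). As Nfe2l2 entered this test through its call on the same UMIs, its shares are not separate support. The thinned share in the poorest barcodes was 19.0% to 23.1% in WT libraries, above the cardiomyocytes in 3 of the 4, and 31.6%, 23.7% and 23.6% in Taz-KO libraries 4685, 4910 and 5300, below the cardiomyocytes in each. In 4685 the exact 95% binomial intervals overlap (26.2% to 37.5%, against 33.2% to 48.0% in cardiomyocytes).

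In the other cell types Nfe2l2 did not pass. It was at 108.6 to 156.8 CPM in WT and 125.9 to 167.3 CPM in Taz-KO fibroblasts, with a log2 fold change of 0.08 (SE 0.17). In endothelial cells the log2 fold change was 0.18 (SE 0.17) and in macrophages 0.38 (SE 0.24). The effect in cardiomyocytes exceeded that in fibroblasts by 0.90 (SE 0.15, adjusted p = 0.00633), in a test in which 4.15% of 19858 genes passed. Without WT replicate 4686 (0.75, adjusted p = 0.0789) or Taz-KO replicate 4910 (0.85, adjusted p = 0.0565) this difference did not pass, and without both small libraries it did (0.71, adjusted p = 0.0103). Against endothelial cells it was 0.79 (SE 0.20, adjusted p = 0.0630) and against macrophages 0.62 (SE 0.25, adjusted p = 0.36), in tests in which 2.08% and 0.979% of genes passed. In the poorest barcodes Nfe2l2 was at 104.5 to 134.7 CPM in WT and 139.1 to 206.6 CPM in Taz-KO libraries, below the cardiomyocytes in all 4 Taz-KO libraries.

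**Figure D3:**
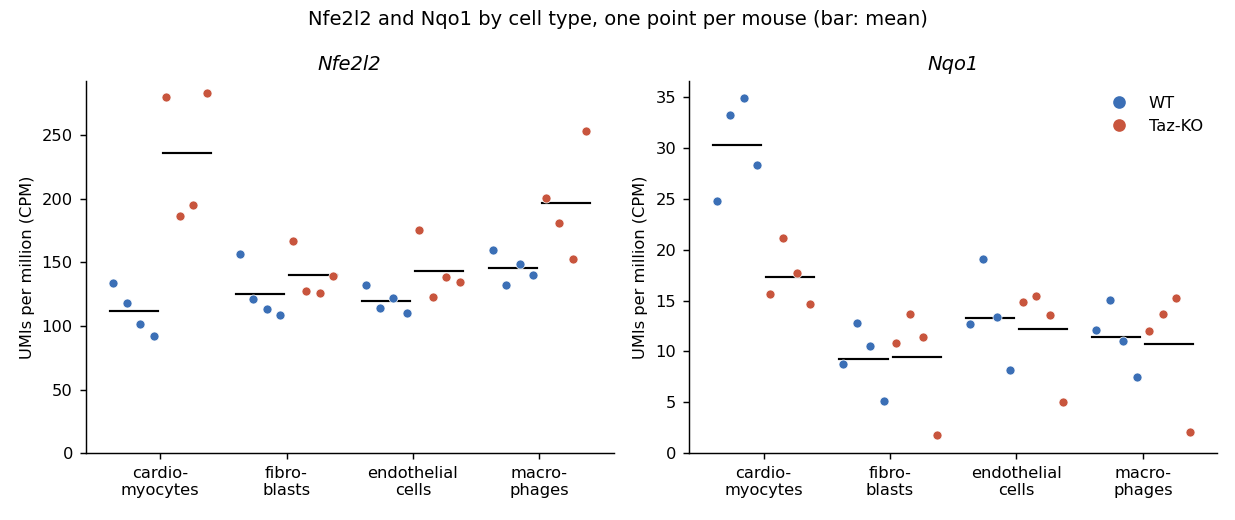
Nfe2l2 (left) and Nqo1 (right) in 4 cell types (y axes: CPM, from 0), with 4 WT and 4 Taz-KO mice per type as points and means as bars. In cardiomyocytes the Taz-KO points of Nfe2l2 (186.6 to 283.0) lie above the WT points and those of Nqo1 (14.7 to 21.1) lie below them, whereas the groups overlap for both genes in the other 3 types.

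Of 29 listed NRF2 targets other than the members, 4 were higher in Taz-KO cardiomyocytes (13.8%, against 9.09% of all genes) and none was lower, with edgeR, with DESeq2 or at an unadjusted p below 0.05, and the median log2 fold change was −0.05. Those 4 were Slc7a11, Abcc4, Srxn1 and Pir. Slc7a11, the cystine importer that feeds glutathione synthesis, is on the ATF4 list too, at 1.35 to 3.20 CPM in WT and 42.3 to 67.2 CPM in Taz-KO (log2 fold change 4.63, SE 0.27, adjusted p = 1.55e-06). Abcc4, an efflux pump that can carry glutathione conjugates, was at 36.0 to 54.1 and 135.7 to 187.9 CPM (1.69, SE 0.20). Sulfiredoxin, encoded by Srxn1, repairs overoxidised peroxiredoxins, and its gene was at 2.74 to 6.03 and 8.77 to 15.2 CPM (1.22, SE 0.24). Pir was at 10.1 to 20.7 and 23.4 to 38.2 CPM (0.97, SE 0.25, adjusted p = 0.0212). Its call was lost without WT replicate 5355 or 5356 or Taz-KO replicate 4685 or 4910, with log2 fold changes of 0.81 to 0.96 and adjusted p of 0.0531 to 0.0716, and it held under 10 of 17 alternatives. In the other 3 cell types no listed NRF2 target passed with edgeR; 1, 2 and 2 had an unadjusted p below 0.05, and DESeq2 called 0, 1 and 1. There the list medians were −0.06, 0.09 and 0.22 in fibroblasts, endothelial cells and macrophages, beside 0.00, 0.01 and 0.02 over all genes.

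Among 12 regulators of NRF2, Mafg was higher and Bach2 lower in Taz-KO cardiomyocytes (8.33% in each direction, against 9.09% and 6.66% of all genes). Bach2, a repressor that competes for NRF2 sites, was at 127.3 to 179.9 CPM in WT and 51.7 to 81.0 CPM in Taz-KO (log2 fold change −1.30, SE 0.21, adjusted p = 0.00165). Mafg, a small MAF partner of NRF2, was at 42.7 to 59.2 and 84.7 to 108.2 CPM (0.76, SE 0.19, adjusted p = 0.0195), and lost its call without WT replicate 5355 (0.66, adjusted p = 0.0561) or without both small libraries (0.51, adjusted p = 0.143). Keap1 was at 21.8 to 29.7 and 23.5 to 31.1 CPM (−0.13, SE 0.14).

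Of 9 listed genes, Atf4 itself and genes that act on or with it, Cebpg and Eif2ak3 were higher and Dele1 was lower (22.2% and 11.1%, against 9.09% and 6.66% of all genes). The rest of the list, Atf4 included, had no unadjusted edgeR p below 0.05. Cebpg, a C/EBP partner of ATF4, was at 16.4 to 22.0 CPM in WT and 85.1 to 103.9 CPM in Taz-KO (log2 fold change 2.14, SE 0.16, adjusted p = 1.16e-05). Dele1, which relays mitochondrial stress to an eIF2α kinase, was at 33.0 to 44.4 and 25.9 to 28.8 CPM (−0.65, SE 0.15, adjusted p = 0.0118), and its call was lost when each nucleus was typed by itself from marker pairs (−0.53, adjusted p = 0.0923). Eif2ak3, the eIF2α kinase of the endoplasmic reticulum, was at 30.5 to 41.7 and 54.3 to 75.6 CPM (0.63, SE 0.19, adjusted p = 0.0447). This last call was lost under 11 of 17 alternatives, including without WT replicate 4686, 4909 or 5355 or Taz-KO replicate 4685, 4910 or 5301, with log2 fold changes of 0.51 to 0.64 and adjusted p of 0.0562 to 0.122.

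**Figure D4:**
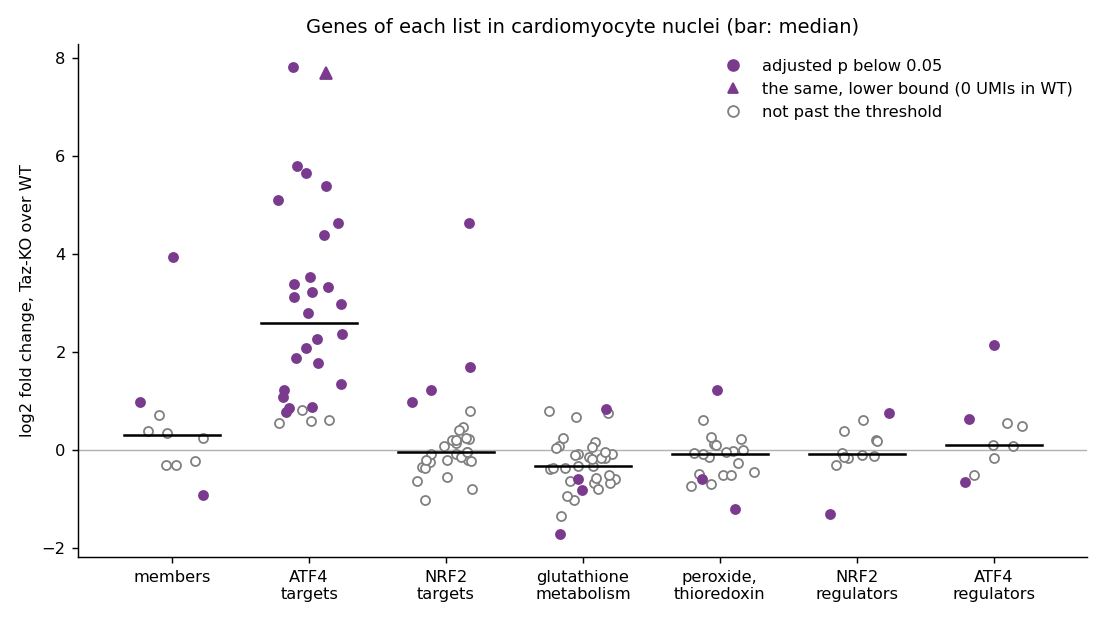
Log2 fold change (Taz-KO over WT, y axis) of the 10 members and of each tested gene of 6 lists in cardiomyocyte nuclei. Filled symbols passed an adjusted p of 0.05, open symbols did not, horizontal bars are list medians and the triangle is the lower bound of Adm2, which had no WT UMI. ATF4 targets sit around a median of 2.59 and NRF2 targets around −0.05, and the highest point of the NRF2 list is Slc7a11, which is on both lists. The lists were chosen with earlier results of these data known, so the contrast between them is a description.

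The 3 enzymes that act on peroxide and superoxide did not pass in any cell type. Gpx4 (chromosome 10, 80047166 to 80056439, plus strand) reduces peroxides of membrane lipids at the expense of glutathione. It was at 78.0, 134.8, 105.6 and 38.1 CPM in WT replicates 4686, 4909, 5355 and 5356 and at 55.5, 119.3, 130.6 and 25.8 CPM in Taz-KO replicates 4685, 4910, 5300 and 5301. The spread within each genotype was far wider than the difference of the means (log2 fold change −0.23, SE 0.46, adjusted p = 0.80). Its direction turned without Taz-KO replicate 5301 (0.05) and without both small libraries (0.31). Sod1 (chromosome 16, 90220754 to 90226329, plus strand), the cytosolic superoxide dismutase, was at 27.9 to 93.8 CPM in WT and 24.1 to 98.8 CPM in Taz-KO (−0.31, SE 0.39, adjusted p = 0.67; 0.09 without both small libraries). Sod2 (chromosome 17, 13006846 to 13040063, plus strand), its mitochondrial counterpart, was at 82.4 to 153.5 and 78.8 to 136.6 CPM (−0.31, SE 0.17, adjusted p = 0.28). All 3 were lower in cardiomyocytes than in the poorest barcodes of the same library. The cardiomyocyte level was 0.142 to 0.352 of the poorest barcodes for Gpx4, 0.162 to 0.397 for Sod1 and 0.521 to 0.876 for Sod2. The part of free RNA in these levels was not tested.

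In cardiomyocytes these 3 genes tended to be higher in libraries with a larger mitochondrial share. Mitochondrial transcripts made up 6.55%, 15.9%, 8.68% and 4.55% of all UMIs in WT replicates 4686, 4909, 5355 and 5356 and 1.68%, 11.3%, 7.64% and 0.504% in Taz-KO replicates 4685, 4910, 5300 and 5301. Over the 8 mice, Pearson's r with log2(CPM + 1) was 0.841 for Gpx4, 0.719 for Sod1 and 0.770 for Sod2 (exact permutation p = 0.00776, 0.0475 and 0.0253; adjusted over 12 relations 0.0732, 0.0815 and 0.0760). Spearman's rho was 0.905, 0.810 and 0.810 (adjusted p = 0.0429, 0.0436 and 0.0436). Without the mice farthest from the median share, WT replicate 4909 and Taz-KO replicate 5301, r was 0.780, 0.569 and 0.473 (exact permutation p = 0.0653, 0.26 and 0.35). For Gpx4 the correlation thus stayed about as large over 6 mice, while for Sod1 and Sod2 it was smaller, and none had a p below 0.05. Over the other 9 relations, in fibroblasts, endothelial cells and macrophages, r ran from 0.501 to 0.815, and from −0.0583 to 0.728 without the 2 farthest mice of each type. Spearman's rho was 0.36 to 0.48 in macrophages (adjusted p = 0.32 to 0.42), 0.29 for Sod1 in endothelial cells (adjusted p = 0.50) and 0.71 for Sod1 in fibroblasts (adjusted p = 0.0864), and the other 4 had an adjusted p of 0.0429 to 0.0479. The relation was not tested within a genotype. Its part in the genotype differences was not tested.

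**Figure D5:**
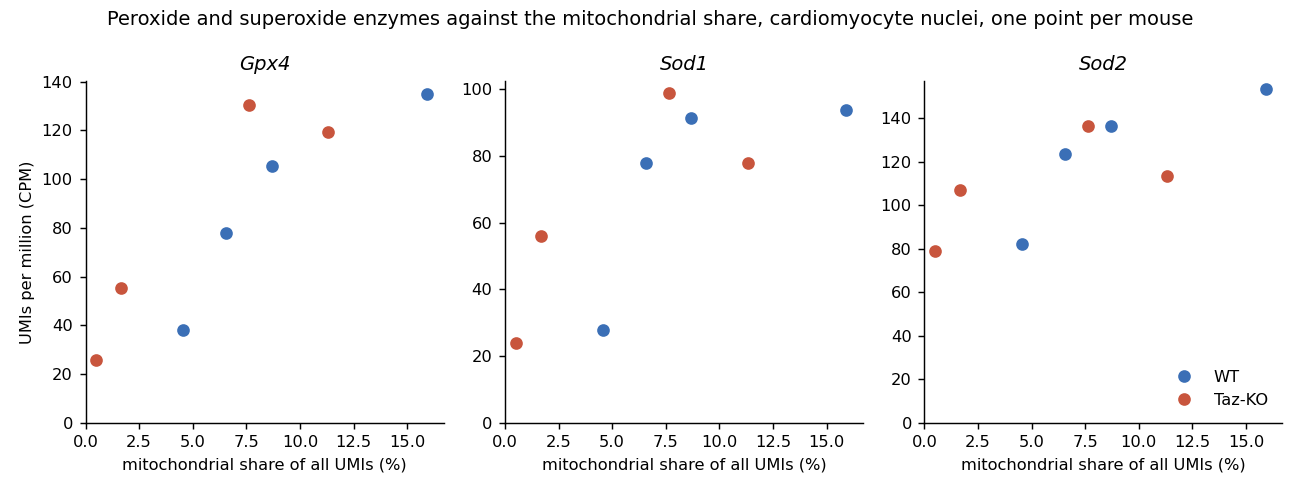
Level of Gpx4, Sod1 and Sod2 in cardiomyocyte nuclei (y axes: CPM, from 0) against the mitochondrial share of all UMIs of the same nuclei (x axes: percent), with 1 point per mouse in WT and Taz-KO. Shares run from Taz-KO replicate 5301 (0.504%) to WT replicate 4909 (15.9%). Levels tend to be higher to the right but do not rise throughout. Each gene is lower in WT replicate 5356 (4.55%) than in Taz-KO replicate 4685 (1.68%). Each is also lower in Taz-KO replicate 4910 (11.3%) than in Taz-KO replicate 5300 (7.64%).

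Of 37 further genes of glutathione metabolism, 35 were tested in cardiomyocytes, where 1 was higher (2.86%) and 3 were lower (8.57%), against 9.09% and 6.66% of all genes; the median log2 fold change was −0.33. Glutathione synthetase, encoded by Gss, completes glutathione synthesis, and its gene was at 17.6 to 22.2 CPM in WT and 33.8 to 40.7 CPM in Taz-KO (0.84, SE 0.15, adjusted p = 0.00339). Gstk1, a mitochondrial and peroxisomal glutathione transferase, was at 9.34 to 15.3 and 2.25 to 5.53 CPM (−1.72, SE 0.24, adjusted p = 0.000727), and its call was lost after subtraction of the free RNA profile (−2.28, adjusted p = 0.0770). Ggct, which acts on the γ-glutamyl products of glutathione breakdown, was at 10.3 to 14.6 and 6.31 to 8.52 CPM (−0.81, SE 0.18, adjusted p = 0.0106). Its call was lost without both small libraries (−0.79, adjusted p = 0.0573). Oplah, the oxoprolinase of the same route, was also lower (−0.58, SE 0.18, adjusted p = 0.0449), though its mice overlapped. Its call was lost without both small libraries and after subtraction of the free RNA profile. As it lay outside the naming rule, it was chosen after its values were seen.

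Of 21 genes of the peroxiredoxin and thioredoxin systems, all were tested, and Srxn1 was higher while Txnip and Msrb2 were lower (4.76% and 9.52%, against 9.09% and 6.66% of all genes), with a median log2 fold change of −0.09. Txnip, which binds and inhibits thioredoxin, was at 277.1 to 442.4 CPM in WT and 89.8 to 260.4 CPM in Taz-KO (−1.20, SE 0.25, adjusted p = 0.00824), and missed the threshold without both small libraries (−0.89, adjusted p = 0.0582). Msrb2, a mitochondrial methionine sulfoxide reductase, was at 33.0 to 42.4 and 24.2 to 30.2 CPM (−0.60, SE 0.16, adjusted p = 0.0274), and lost its call without WT replicate 4909 (−0.57, adjusted p = 0.0786) or Taz-KO replicate 5300 (−0.50, adjusted p = 0.0643), and held under 12 of 17 alternatives. No gene of the glutathione list, the peroxide list or the regulator lists passed in the other cell types with edgeR or DESeq2, and per list and cell type 0 to 2 genes had an unadjusted edgeR p below 0.05.

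The promoters of 8 of the 10 members were in the RefSeq table, with 13 windows in all. Gclc and Hmox1 were not among them. The antioxidant core TGACNNNGC was found in 1 window each of Gclm, Txnrd1, Sod1 and Nfe2l2 and in none of those of Chac1, Nqo1, Gpx4 and Sod2, and the ATF4 composite element was found in that of Chac1 alone. The matches are shown with 10 bases to either side, 5′ to 3′ on the strand of the gene, with the match in capitals, because they set the motif of Chac1 beside those of the 4 members that held the antioxidant core. The windows are chr2:119350992-119351241 (Chac1, plus), chr3:122245307-122245556 (Gclm, plus), chr10:82858956-82859205 (Txnrd1, plus), chr16:90220512-90220761 (Sod1, plus) and chr2:75704664-75704913 (Nfe2l2, minus), each the 250 bases before the start on GRCm38.p6.
Chac1: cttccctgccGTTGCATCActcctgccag
Gclm: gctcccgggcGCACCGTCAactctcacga
Txnrd1: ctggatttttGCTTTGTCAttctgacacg
Sod1: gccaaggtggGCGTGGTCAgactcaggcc
Nfe2l2: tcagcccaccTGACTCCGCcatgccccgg
Nqo1, the member that was lower, thus held neither motif in this window, which says only that these letters are not there. The following shares are per gene, over all windows of a gene. The ATF4 element was in 9 of 27 ATF4 targets with a window (33.3%) and in 1 of 25 NRF2 targets, Slc7a11, against 4.49% of 27018 genes with a window. The antioxidant core was in 9 of the 25 NRF2 targets and in 8 of the 27 ATF4 targets (29.6%), against 3781 of the 27018 genes.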

How the data were processed

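The deposited matrices hold raw UMI counts per gene and barcode for 8 libraries, 1 per mouse. Per the labels and the study's methods, the authors made these counts from 10x 3′ nuclear libraries with Cell Ranger 6.0.1 on mm10 (GRCm38), introns included. The files carry no correction for free RNA or doublets.

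Of 169193 barcodes, the 167495 that reached 800 UMIs and 250 genes were kept, mitochondrial genes were left out of all levels, and 16231 barcodes that scored like artificial doublets were removed, which left 151264 barcodes, here called nuclei. The study used about 10000 nuclei per heart, fewer than the barcodes of each library other than 4685 and 5301. With the same limits on UMIs and genes it kept fewer nuclei in all. In each library other than 4685 and 5301 the barcodes kept, at least 19071, exceeded the about 10000 nuclei used. Not each of them can then be a separate nucleus. How many of the barcodes kept here are droplets without a nucleus was not tested. All 151264 were clustered (2000 variable genes, 15 components, Harmony over mice written in numpy 2.4.6, 20 neighbours, Leiden at resolution 0.9 in python-igraph 0.11.9), and 35 clusters resulted. A cluster was named where its own marker score reached 0.75 of the best of that class and no other class reached 0.5. At least 3 of its markers also had to exceed their median level over all clusters. This rule was set after the scores were seen, and 19 clusters stayed unnamed. In library 4910, 174 of 5564 fibroblasts, 106 of 5396 endothelial cells and 48 of 4017 macrophages were among its 10000 richest barcodes. A difference from the study's own typing may come from these rebuilt names or from the larger number of barcodes kept.

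Counts were added up for every mouse within each cell type. The WT and Taz-KO sums of each type were compared with edgeR 4.0.16 (quasi-likelihood test, TMM factors, low genes filtered), with Benjamini-Hochberg adjustment over all genes tested in that type, a threshold of 0.05 and SE = |log2 fold change|/√F. All adjusted p-values of log2 fold changes come from this test unless another is named. Differences of effects between cell types came from a fit of type by genotype with the mouse as a block. Shares of nuclei and relations to the mitochondrial share were tested with exact permutation tests in scipy 1.17.1. On simulated counts the fits gave the known changes at the median, while not every changed gene passed. Intervals and limits from counts cover counting error only.

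DESeq2 1.42.0, other scalings, no filter on low counts, other cell selections, subtraction of a free RNA profile and omission of each mouse were tried. In each list the text names up to 5 genes past the threshold whose mice do not overlap, by size of change. The members and the gene lists were chosen with earlier results of these data known. A symbol on more than 1 feature was read from the feature with the most UMIs. Positions are from GENCODE vM21.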

Additional observations from a re-analysis of the deposited data

Results flagged for a closer look

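The outermost mouse stood apart from the other 3 of its group in 4 of 80 groups of 4 mice, by a gap that took up most of the range of the group (Dixon's test at the 95% level), and chance gives about 1 in 20. Gclm in fibroblasts was at 16.7 CPM in WT replicate 5356, against 28.5 to 30.1 in the other WT mice. In Taz-KO replicate 5301 it was at 14.5 CPM, against 31.6 to 33.7 in the other Taz-KO mice. Gclc in endothelial cells was at 24.7 CPM in Taz-KO replicate 4685, against 36.1 to 38.3 in the others. Sod2 in endothelial cells was at 31.1 CPM in Taz-KO replicate 5301, against 158.0 to 176.4 in the others, and that library also had the lowest mitochondrial share.

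The effect of the knockout on Nfe2l2 differed between cardiomyocytes and fibroblasts by 0.90 on the log2 scale (edgeR, SE 0.15, adjusted p = 0.00633). In cardiomyocytes 4 of 4 Taz-KO mice lay above every WT mouse, and in fibroblasts the groups overlapped.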

How the results depend on the processing

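No paired analysis was made because the labels used here give no pair, litter or batch of the mice. The part of litter or batch in the genotype differences was not tested. Of 1253 values under alternative settings of 83 results, 1014 kept their direction and their side of the threshold or, for counts and untested values, moved little (counts by at most 1.5 times). Members past the threshold in cardiomyocytes were 3, with 4 under totals alone (Txnrd1 added) and 2 without both small libraries (Nfe2l2 lost). Alternatives for the gene lists, and the comparison of cell types without both small libraries (Taz-KO 4685 and 5301), were chosen after seeing the data. In no result below was the cause of a change tested.

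In cardiomyocytes, Chac1 and Nqo1 kept their calls under all 17 alternatives. Gpx4 turned to 0.31 on the log2 scale without both small libraries and ran from −0.52 to 0.0497 as single mice were left out, and Sod1 turned to 0.092 without both small libraries. Unthinned shares differed by 13.7 percentage points for Nfe2l2 (p = 0.17) and −6.35 for Nqo1 (p = 0.20), exact permutation tests. Glutathione genes higher were 2 with totals alone, 3 with DESeq2, 2 without both small libraries, 2 with the 10000 richest barcodes, 3 with doublets kept, 2 with nuclei typed by marker pairs and 1 to 3 without single mice, against 1. Those lower were 1 without both small libraries and 1 after subtraction of the free RNA profile, against 3.

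The count of members called (1, Chac1) was 0 to 1 without single mice in each of the other 3 cell types. It was 0 in fibroblasts after subtraction of the free RNA profile, and 0 in macrophages after that subtraction and with totals alone. With the 10000 richest barcodes it was 0 in endothelial cells and in macrophages, where Chac1 was too sparse to be tested. Nfe2l2 in fibroblasts turned to −0.0522 without both small libraries and −0.0236 after subtraction of the free RNA profile and ran from −0.0126 to 0.22 without single mice. ATF4 targets higher in fibroblasts were 12 with DESeq2, 11 without both small libraries, 3 with the richest barcodes, 0 after subtraction and 0 to 11 without single mice, against 6. In endothelial cells they were 14 with DESeq2, 2 with the richest barcodes, 1 after subtraction and 0 to 15 without single mice, against 8. In macrophages they were 13 with DESeq2, 11 without the filter, 13 without both small libraries, 10 with marker pairs, 0 with the richest barcodes, 0 after subtraction and 0 to 17 without single mice, against 5. DESeq2 called 261 genes higher and 110 lower in fibroblasts, 198 and 99 in endothelial cells and 85 and 57 in macrophages, where edgeR called 58 and 15, 53 and 16, and 23 and 8. The genes edgeR called higher over the whole table also moved with the setting: 20, 7 and 1 with the richest barcodes, 0, 7 and 0 after subtraction, and 8 to 126, 13 to 146 and 2 to 115 without single mice.

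Over all 10 members and the other cell types, 1 difference of effect from cardiomyocytes passed (Nfe2l2 against fibroblasts), with 2 without both small libraries and 0 to 1 without single mice. The Nfe2l2 difference from fibroblasts ran from 0.70 to 0.91 without single mice. That of Chac1 from endothelial cells turned to −0.0017 without both small libraries and ran from −0.0569 to 0.43, and that from macrophages turned to −0.0029 with DESeq2 size factors and ran from −0.44 to 0.27.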
